A study of Rattus norvegicus with 2 samples.

Results

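The 10 genes described here code for the elastic fibre and for the enzymes that crosslink it: elastin (Eln), the fibrillins Fbn1 and Fbn2, the microfibril protein Mfap5, the fibulins Fbln1, Fbln2 and Fbln5, and the lysyl oxidases Lox, Loxl1 and Loxl2. They are a list of names drawn up with earlier results of these data known, so their count and median describe the set and do not test it. All 10 were found among the 22093 genes for which the array's annotation gives a symbol. Each is read by 1 probe set. All 10 had higher levels in the sample of rat neural stem cells (NSCs) grown with mesenchymal feeder cells than in the sample grown without them. The differences were 1.16 to 4.04 on the log2 scale.

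The study profiled RNA from NSCs of SD rats, taken from the whole brain at embryonic day 13.5 and grown as neurospheres for 10 days in serum-free medium with bFGF and EGF. The co-cultured group was then seeded on ectodermal mesenchymal stem cells (EMSCs) at passage 3, taken from transgenic rats that express green fluorescence protein (GFP). After 14 days in medium with 10% fetal bovine serum (FBS), its NSCs were recovered by fluorescence-activated cell sorting. The labels do not describe the gate, and whether feeder cells remained in the sorted sample was not tested. The mono-cultured group was kept without EMSCs for 14 days, and the sources used here give neither its medium in that period nor any sort, so serum and sorting cannot be told apart from co-culture where they differed. The labels name no other genotype or drug in either group, and not the promoter that drives GFP in the feeder rats. Each group is 1 sample on 1 array, so no difference here has a replicate check, and no p-value was computed. Levels are log2 values after RMA, a procedure that corrects background, equalises the arrays and summarises probes. Differences are written as co-culture minus mono-culture, so that 1 corresponds to 2-fold.

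Elastic fibres give tissues recoil. Cells first lay down microfibrils, bundles built mainly of fibrillins, and soluble elastin is then deposited on them with the help of fibulins and joined into an insoluble polymer by lysyl oxidases, copper enzymes that oxidise lysine side chains. In the brain such fibres are known mainly from vessel walls and the meninges, and the fibroblasts and smooth muscle cells that make them are of mesenchymal character.

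A gene was kept where its higher level was at least 4.97, the median over all genes and both arrays, which left 11849 genes. All 10 members were kept, but Fbn1, Fbln2, Fbln5 and Mfap5 passed only through their co-cultured level, so they had to differ. As a mark of brightness, a level of 6.64 was used, which 95% of the values of the 1153 negative control probe sets did not exceed. On the co-cultured array 9 members exceeded it, all but Fbn2. On the mono-cultured array 0 of 10 did, and their levels there lay between 4.16 and 5.82. Of all kept genes, 5.48% were above this mark in co-culture and not in mono-culture. Mono-cultured levels in this range cannot be told from background, so the size of each difference depends on how background was treated.

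**Figure D1:**
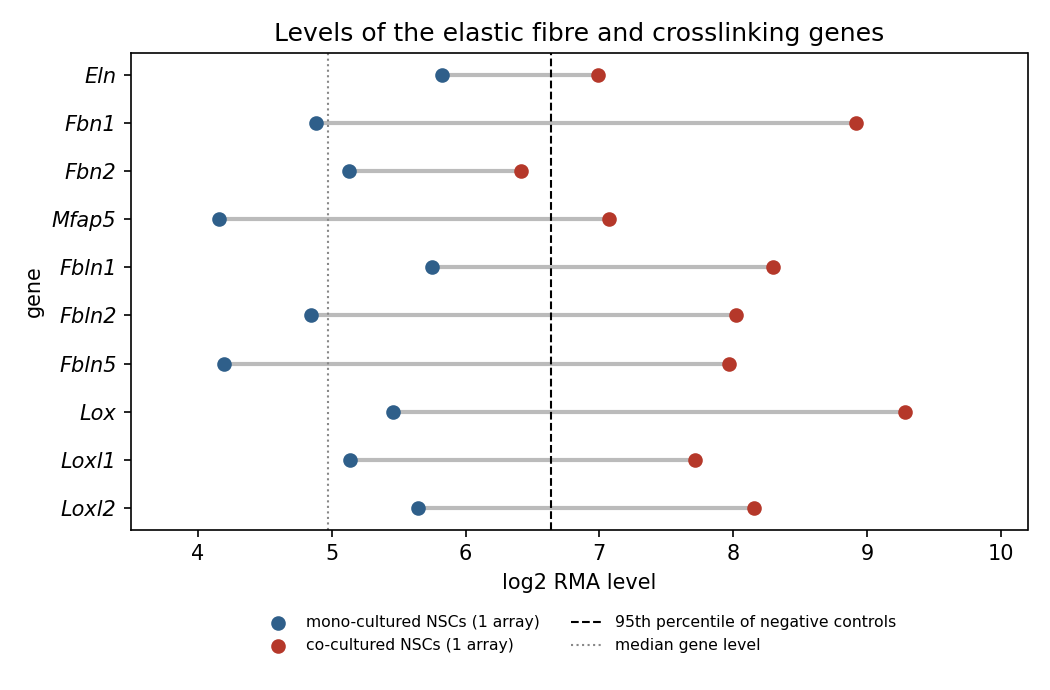
Log2 RMA levels (x axis) of the 10 genes (y axis) on the mono-cultured array (blue) and the co-cultured array (red), with 1 point an array and no error bars since each group is 1 sample. The dotted line is the median gene level of 4.97 and the dashed line the negative control level of 6.64; every blue point lies left of the dashed line, and every red point except that of Fbn2 lies right of it.

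At 2-fold or more, 10 of 10 members were higher in co-culture and 0 were lower, against 5.04% of all kept genes higher, 5.54% lower and 10.6% past 2-fold either way. Among the genes that reached 6.64 on either array the share higher by 2-fold was 7.42%. At 4-fold or more there were 8 members, against 1.8% of kept genes, and at 8-fold or more 4 members, against 0.658%. The median difference of the members was 2.74, or 6.70-fold, beside a median of -0.06 and an SD of 0.79 over all kept genes. The quartiles of the members were 2.52 and 3.62. Among 399 positive control probe sets the central 95% of differences lay between -1.15 and 0.61, and among the negative controls between -1.44 and 1.11, and all 10 members were above both ranges. The largest single difference upward was 1.19 among positive and 2.65 among negative controls, which 9 and 5 members exceeded.

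**Figure D2:**
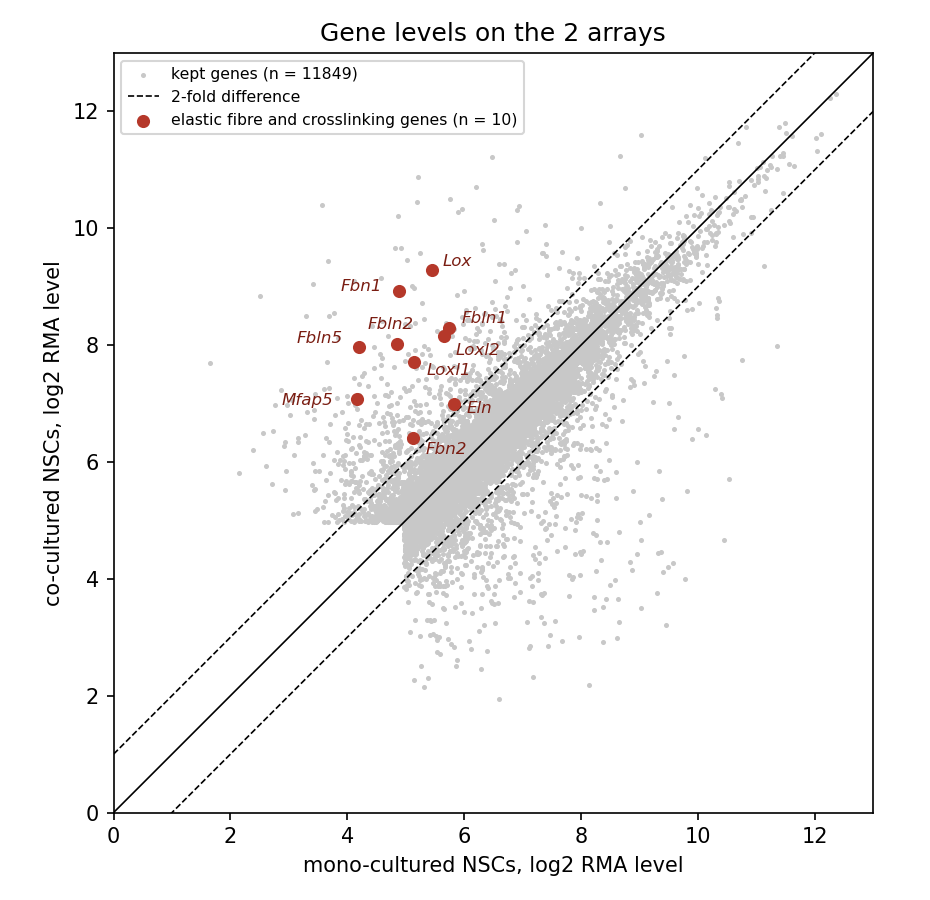
Log2 RMA level of each kept gene in mono-cultured (x axis) and co-cultured NSCs (y axis), with the 11849 kept genes in grey and the 10 elastic fibre and crosslinking genes in red. All 10 red points lie above the upper dashed line, which marks 2-fold higher in co-culture, with Eln (1.16) and Fbn2 (1.29) nearest to it.

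Elastin itself had the smallest difference of the set in the deposited values, next to Fbn2, which was smaller once dim levels were raised. Eln, which codes for tropoelastin, the soluble unit of the elastic core, had a level of 6.99 in co-cultured and 5.82 in mono-cultured NSCs. The co-cultured value was just above the negative control level and the mono-cultured value below it, a difference of 1.16 or 2.24-fold. It ranked 478 of the 11849 kept genes, counted from the largest difference upward. With both values raised to at least 6.64, the difference was 0.35. The difference of Eln was only slightly above the central 95% of the negative controls, which ended at 1.11, and below the highest positive control.

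The microfibril genes differed widely among themselves, with Fbn1 the largest difference of the set in the deposited values and Lox larger once dim levels were raised. Fbn1 codes for fibrillin-1, the main microfibril protein, which is mutated in Marfan syndrome in humans. It was at 8.92 with and 4.88 without feeder cells. The difference of 4.04, or 16.5-fold, ranked 27 among kept genes, and once dim values were set to 6.64 it came to 2.28. Fbn2 codes for fibrillin-2, a microfibril protein known mostly from developing tissues, and was 6.41 in co-culture against 5.13 in mono-culture. It was the 1 member below the negative control level on both arrays, so its difference of 1.29 (2.44-fold, rank 424) was 0 once dim levels were raised. Mfap5, whose product (MAGP-2) binds fibrillins along the microfibril, was 7.07 against 4.16. Its difference was 2.91 (7.54-fold, rank 86), and 0.43 with dim levels raised, as its co-cultured level was close to the limit. The difference of Fbn1 was larger than that of its paralog Fbn2 both in the deposited values and with dim levels raised, but the size of the gap depends on the background.

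Of the paralogs Fbn1 and Fbn2 the first exceeded 6.64 in co-culture and the second did not. The stretches around their annotated starts are shown from RefSeq (GRCr8), 250 bases before to 50 bases after the start, 5′ to 3′ on the gene's strand. That of Fbn1 is chr3:133203341-133203640 and that of Fbn2 is chr18:53901943-53902242, both on the minus strand. Capitals mark matches on either strand to 5 short motifs searched: TATAAA, the core of a TATA box, GGGCGG, known as the GC box, TGANTCA, which AP-1 factors bind, GGAATG, which TEAD factors bind, and CAGACA, which SMAD proteins bind.
Fbn1: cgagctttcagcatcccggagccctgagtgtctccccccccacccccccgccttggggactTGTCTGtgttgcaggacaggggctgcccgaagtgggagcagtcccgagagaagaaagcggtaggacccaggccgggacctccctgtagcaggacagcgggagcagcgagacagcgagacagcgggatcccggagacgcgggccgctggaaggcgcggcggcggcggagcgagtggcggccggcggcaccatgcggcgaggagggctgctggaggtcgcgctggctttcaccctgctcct
Fbn2: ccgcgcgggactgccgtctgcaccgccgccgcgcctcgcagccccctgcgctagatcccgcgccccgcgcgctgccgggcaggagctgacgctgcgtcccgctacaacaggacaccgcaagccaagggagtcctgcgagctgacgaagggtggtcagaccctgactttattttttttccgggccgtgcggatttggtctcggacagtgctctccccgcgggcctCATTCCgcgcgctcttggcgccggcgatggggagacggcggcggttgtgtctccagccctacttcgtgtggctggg
The window of Fbn1 held 1 match, to CAGACA in reverse at -189 from the start, and that of Fbn2 held 1, to GGAATG in reverse at -26. Both windows were rich in G and C, at 70.7% for Fbn1 and 69.3% for Fbn2, against a median of 51.7% over 33469 promoters. In both, the 50 bases after the start open with the letters atg, so the annotated start may be that of the coding sequence. The 250 bases before it are therefore not shown to be the promoter.

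The 3 fibulins were 5.88-fold to 13.6-fold higher in co-culture in the deposited values, and 2.51-fold to 3.16-fold with levels raised to 6.64. Fbln5 codes for a secreted protein that binds elastin and integrins and is needed for elastic fibre assembly in mice. Its levels were 7.97 with and 4.20 without feeder cells, a difference of 3.77 (13.6-fold, rank 40). Fbln2, whose product binds fibrillin and basement membrane proteins, was 8.02 against 4.85, a difference of 3.17 (9.02-fold, rank 71). Fbln1, whose product lies within the elastic core and also binds fibronectin, was 8.30 against 5.75, a difference of 2.56 (5.88-fold, rank 122). All 3 stood above the negative control level in co-culture and below it in mono-culture. With dim levels raised to 6.64 the differences were 1.32 for Fbln5, 1.38 for Fbln2 and 1.66 for Fbln1. The order of the fibulins was thereby turned, so the data do not settle which of them differed most.

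The lysyl oxidases were 5.70-fold to 14.2-fold higher in the deposited values, and 2.10-fold to 6.24-fold with levels raised to 6.64. Lox, the founding member, crosslinks both elastin and fibrillar collagen. It was at 9.28 in co-cultured against 5.46 in mono-cultured NSCs, a difference of 3.83 (14.2-fold, rank 34). With dim levels raised its difference was 2.64, the largest of the 10 under that treatment. Loxl1, which is known for the upkeep of elastic fibres in adult mice, was 7.71 against 5.14, a difference of 2.58 (5.96-fold, rank 115) that became 1.07. Loxl2, which also crosslinks basement membrane collagen, was 8.16 against 5.65, a difference of 2.51 (5.70-fold, rank 126) that became 1.52. Both Loxl1 and Loxl2 thus had a smaller difference than Lox on either scale.

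The promoters of Fbln5 and Loxl1 are shown as those of the fibulin with the largest difference in the deposited values and of the lysyl oxidase found in the promoter table. They lie at chr6:126742657-126742956 and chr8:67612175-67612474 (GRCr8, minus strand in both cases), with capitals as above.
Fbln5: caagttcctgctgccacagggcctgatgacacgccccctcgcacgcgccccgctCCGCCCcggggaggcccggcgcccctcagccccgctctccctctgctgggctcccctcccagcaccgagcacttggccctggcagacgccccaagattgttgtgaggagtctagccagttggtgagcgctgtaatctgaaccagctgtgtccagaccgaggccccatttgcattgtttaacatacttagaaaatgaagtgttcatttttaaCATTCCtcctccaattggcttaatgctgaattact
Loxl1: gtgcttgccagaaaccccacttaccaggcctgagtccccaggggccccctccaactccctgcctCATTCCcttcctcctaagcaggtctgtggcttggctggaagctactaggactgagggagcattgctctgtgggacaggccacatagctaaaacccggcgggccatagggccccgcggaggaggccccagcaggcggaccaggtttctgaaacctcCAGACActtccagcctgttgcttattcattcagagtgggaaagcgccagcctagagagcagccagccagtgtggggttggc
The window of Fbln5 held 1 GC box match at -196 and 1 GGAATG match at 16, and that of Loxl1 held 1 GGAATG match at -186 and 1 CAGACA match at -31. Of the 10 members 6 had an entry in the table. Among these, GGAATG was found in 3 (Fbn2, Fbln5 and Loxl1), CAGACA in 2 (Fbn1 and Loxl1), the GC box in 2 (Fbln2 and Fbln5), while 0 windows held the TATA box or AP-1 letters. The shares of all 33469 promoters with a match were 14.2% for GGAATG, 21.1% for CAGACA, 33.1% for the GC box, 14.2% for the TATA box and 7.33% for the AP-1 letters. No matches overlapped, and with 6 windows these counts describe the printed letters only. A match here is not a measured binding site.

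In the deposited values the differences ran, from largest to smallest, Fbn1, Lox, Fbln5, Fbln2, Mfap5, Loxl1, Fbln1, Loxl2, Fbn2 and Eln. As an error within the arrays, the spread between probe sets of 1 gene was used. Over 195 genes with more than 1 bright probe set their differences had a pooled SD of 0.21, which gives 0.30 for the gap between 2 genes. Of the 9 gaps between neighbours 3 were larger than 1 such SD: between Fbln5 and Fbln2 (0.60), between Mfap5 and Loxl1 (0.34), and between Loxl2 and Fbn2 (1.22). With levels raised to 6.64 the first 2 of these pairs turned, at 1.32 for Fbln5 against 1.38 for Fbln2 and 0.43 for Mfap5 against 1.07 for Loxl1. Of these 3 gaps, that between Loxl2 (1.52) and Fbn2 (0) kept its direction. The other neighbours lay within 1 such SD of each other in the deposited values, so it does not order them. With levels raised to 6.64, Lox stayed above Fbln5, Fbln2 above Mfap5 and Fbln1 above Loxl2. The pairs Fbn1 and Lox, Loxl1 and Fbln1, and Fbn2 and Eln turned. This SD comes from bright probe sets, while every member was dim in mono-culture, and it covers neither cultures nor arrays. The SD of 0.21 is also below the SDs of the differences among the positive controls (0.44) and the negative controls (0.65).

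**Figure D3:**
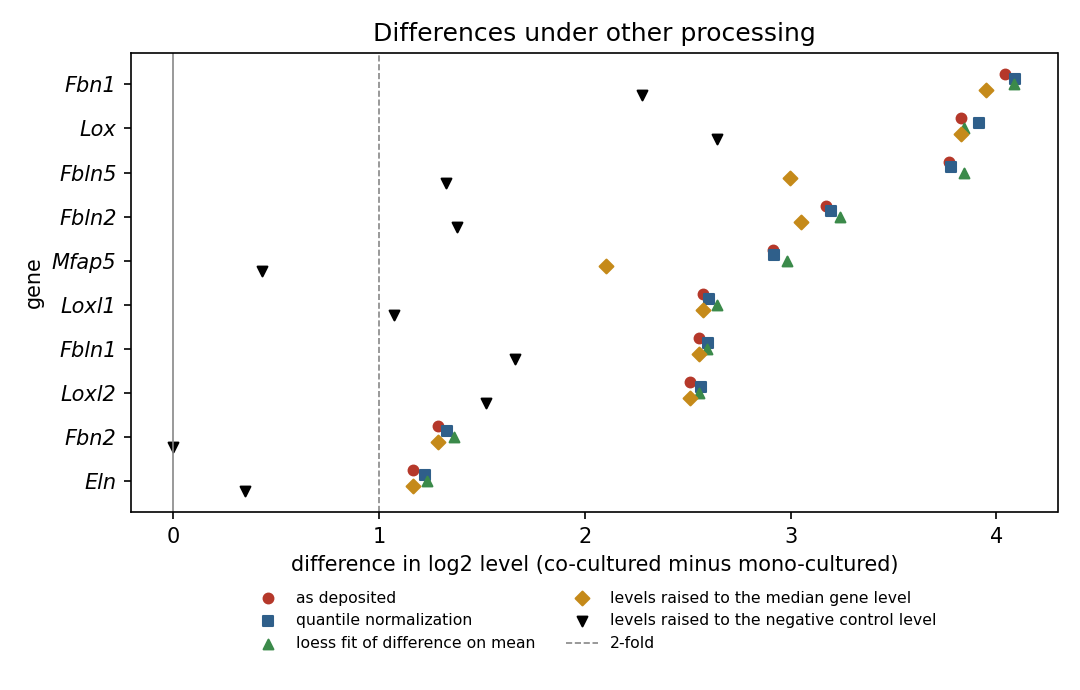
Difference in log2 level (x axis) of each gene (y axis, ordered by its difference) from the deposited values and under 4 other treatments of the same 2 arrays, 1 marker a treatment. The black triangles, with levels below 6.64 raised to it, lie furthest left, and those of Mfap5, Eln and Fbn2 fall below the dashed 2-fold line.

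Other genes of elastic fibre biology were read as 4 lists, which held 53 genes on the array, 44 of them kept. Past 2-fold, 15 of these had higher and 4 had lower levels in co-culture, beside 5.04% and 5.54% of all kept genes. Among the higher, Hmcn1, Ltbp2, Loxl4, Ctsk and Itga8 were under 4.97 in mono-culture. Among the lower, Efemp1 and Ctss were under 4.97 in co-culture. These genes passed the filter through 1 array only, so their direction was fixed. Among 15 kept partners of the fibre and microfibril 5 were higher and 1 was lower, with a median of 0.63. Ltbp1 and Ltbp2, latent TGF-beta binding proteins that resemble fibrillins, differed by 3.23 (8.38 against 5.15) and 2.45, whereas their relatives Ltbp3 and Ltbp4 differed by 0.48 and -0.02. Mfap4, whose product binds elastin and fibrillin, differed by 2.60. The large fibulin relative Hmcn1 was 6.24 against 4.08, a difference of 2.16 with both levels below 6.64. Of the other short fibulins Efemp2, which is needed with Lox for elastin crosslinking in mice, was 7.60 against 6.40, a difference of 1.20. Efemp1 was 4.76 against 5.83, below 6.64 on both arrays, and its difference of -1.07 lay inside the central 95% of the negative controls. The microfibril gene Mfap2, a relative of Mfap5, differed by 0.41 and the elastin-associated Emilin1 by 0.82.

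Among 12 kept genes of crosslinking, processing and deposition 6 were higher and 0 lower, with a median of 1.10. Postn, a matricellular gene whose product aids the activation of Lox, differed by 2.86, and Pcolce, whose product enhances the trimming of procollagen, by 2.67. Fibronectin (Fn1), on which microfibrils are laid down, was 11.24 against 8.66, a difference of 2.57, and the lysyl hydroxylase Plod2 and the collagen chaperone Fkbp10 differed by 1.62 and 1.31. The remaining lysyl oxidases Loxl3 and Loxl4 differed by 0.93 and 1.26, both with levels below 6.64 on both arrays. Bmp1, the protease that releases active Lox from its precursor, was 7.90 in both, and the copper pump Atp7a, which supplies copper to Lox, was 6.93 against 6.61. Lox thus differed by more than either of these.

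Elastin-degrading enzymes were mixed, with 3 of 7 kept members at least 2-fold higher and 2 lower, and a median of 0.15. Mmp2, the gelatinase of stromal cells, was 10.14 against 6.51, a difference of 3.63, and Ctsk and Mmp14 differed by 2.15 and 1.26. Ctss, the elastolytic cathepsin of microglia and macrophages, was 4.44 against 9.31, a difference of -4.87, and Mmp9 differed by -1.42. Of 10 kept receptor genes 8 lay within 2-fold, with a median of 0.07. Itga8, an integrin chain known from mesenchymal and smooth muscle cells, was 7.13 against 4.69, while Ctsa, which stabilises the elastin receptor complex, was 8.78 against 9.78. The integrin chain Itga5 differed by 0.87, the beta-galactosidase Glb1, whose splice form makes the elastin-binding protein, by -0.80, and Itgb1 by 0.80.

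**Figure D4:**
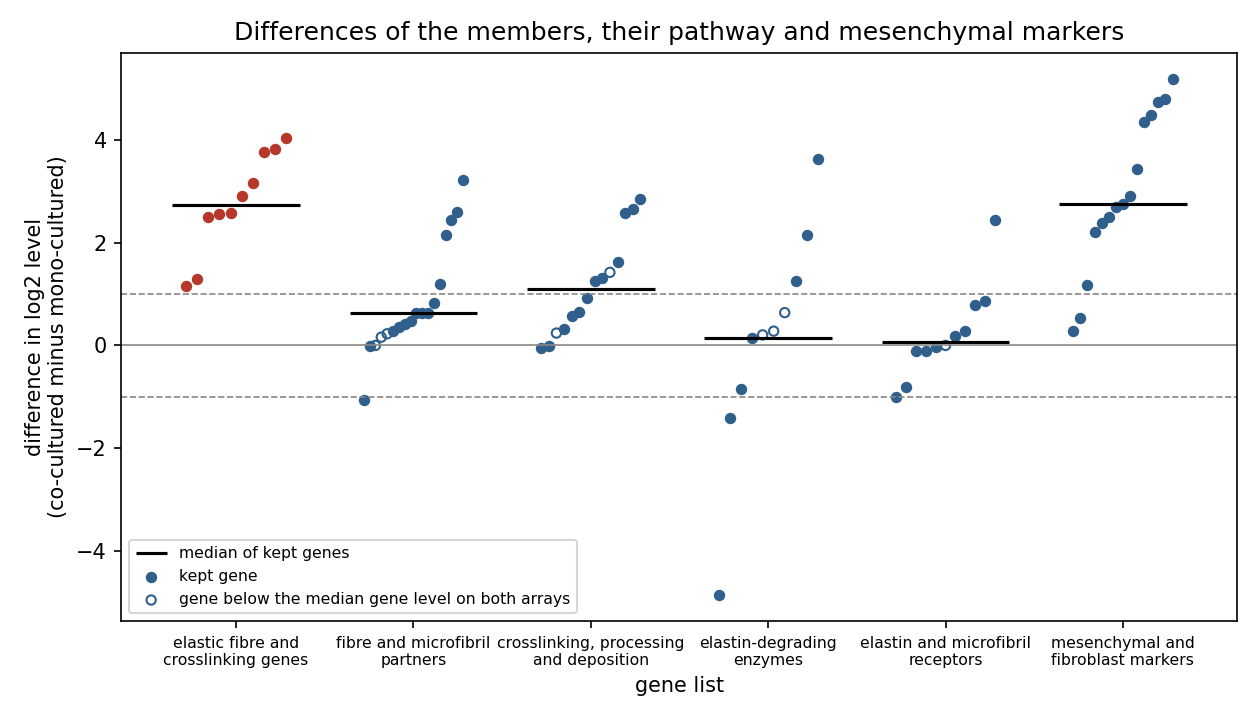
Difference in log2 level (y axis) of single genes in 6 lists (x axis): the 10 elastic fibre and crosslinking genes (red), 4 pathway lists and mesenchymal markers (blue), each list sorted by its values. Filled points are kept genes, open points genes under 4.97 on both arrays, bars are medians of kept genes and dashed lines mark 2-fold; the medians are 2.74 for the red points, 0.07 to 1.10 for the pathway lists and 2.75 for the mesenchymal markers.

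Mesenchymal and fibroblast markers were, like the elastic fibre genes, mostly higher in co-culture. Of 15 mesenchymal and fibroblast markers, all kept and none of them a member, 13 were higher by 2-fold or more, with a median difference of 2.75 beside the 2.74 of the elastic fibre set. Their mean level was 8.28 in co-culture, with values from 5.03 to 11.23, and 5.31 in mono-culture, with values from 2.71 to 6.69. In mono-culture 1 of the 15 exceeded 6.64 and in co-culture 12 did, and Twist1, Twist2 and Fap were below it on both arrays. Lum, Fap, Snai2 and Twist2 were under 4.97 in mono-culture and kept only through co-culture, so they had to differ upward. The share of all kept genes higher by 2-fold or more was 5.04%. Col1a1, Col1a2 and Dcn had differences of 4.75, 4.50 and 4.35. Fbn1, Lox and Fbln5 each differed by more than 10 of the 15 markers and by less than 5, whereas Eln differed by more than 2 of them and Fbn2 by more than 3. The co-cultured NSCs had been sorted from the GFP-labelled feeder cells, but the labels do not describe the gate. The part of feeder cells in the result was not tested, and in bulk RNA fewer cells of a type and less RNA per cell cannot be told apart.

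Among smooth muscle and pericyte markers, a class that also makes elastin, 4 of 5 kept genes were higher, with the highest levels in Acta2 (9.67 against 4.91), Mcam (9.59 against 7.67) and Tagln (8.31 against 7.03). Of these kept genes, Acta2 and Cnn1 were under 4.97 in mono-culture and passed the filter only through co-culture, so they had to differ upward. The defining genes Myh11, Des, Rgs5, Kcnj8 and Abcc9 were under 4.97 on both arrays. The mean of all 10 was 5.87 (3.68 to 9.67) in co-culture and 4.86 (3.62 to 7.67) in mono-culture, with 3 and 2 above 6.64. Of 6 kept meningeal markers 4 were 2-fold higher or more, among them Crabp2 (7.25 against 5.39) and Aldh1a2 (5.88 against 3.96), while Zic1 (7.26 against 6.36) lay within 2-fold. Aldh1a2, Foxc1, Slc6a13 and Foxd1 passed the filter only through co-culture, so they had to differ upward, and all were below 6.64 on both arrays. The share of all kept genes higher by 2-fold or more was 5.04%. The mean of all 8 was 5.71 (4.40 to 7.26) against 4.57 (3.52 to 6.36), with 2 and 0 above 6.64. Endothelial markers were dim, with 0 of 6 above 6.64 on either array and means of 4.39 (3.48 to 5.43) in co-culture and 4.61 (3.89 to 5.58) in mono-culture; Cdh5, Pecam1 and Flt1 were their highest. The part of these classes was not tested.

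The NSC label was borne out in part. Of 9 stem cell and progenitor markers 5 were above 6.64 on each array, with Sox2 at 8.69 in co-culture and 8.83 in mono-culture, Fabp7 at 7.81 against 9.76 and Slc1a3 at 7.01 against 9.51, while Pax6 and Prom1 were under 4.97 on both. Of 7 kept stem cell markers 2 were lower by 2-fold or more, with a median of -0.35. Both samples also held markers of other neural cells: the oligodendrocyte lineage had 5 of 6 markers above 6.64 on each array (Pdgfra, Olig1 and Olig2 the highest), astrocytes 1 of 6 in co-culture and 3 of 6 in mono-culture (Gfap, Aldoc and Slc1a2), and neurons 3 of 6 on each (Stmn2, Map2 and Tubb3). Of 5 kept astrocyte markers 4 were lower by 2-fold or more (median -1.43), and of 6 neuron markers 2 were (median -0.63), with 0 higher in either list and in the stem cell list. Of 6 oligodendrocyte lineage markers 0 passed 2-fold. Microglia and macrophage markers went the other way from the elastic fibre genes, with 10 of 10 at least 2-fold lower in co-culture. The share of all kept genes lower by 2-fold or more was 5.54%. Of the 10 markers, 9 were above 6.64 in mono-culture and 1 in co-culture, with mean levels of 8.93 (5.32 to 10.53) and 4.74 (2.85 to 7.16). Cd68, C1qb and C1qa were the highest. Csf1r, Aif1, C1qb, Itgam, P2ry12 and Tyrobp were under 4.97 in co-culture and kept only through mono-culture, so they had to be lower. The part of this class in the differences was not tested.

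The genes nearest to Eln, Fbn1 and Lox in the plane of the 2 levels were sought as those of most similar pattern, over 2 arrays only. For Fbn1 these were Clmp, Pxdn and Ccdc80, at distances of 0.25, 0.27 and 0.38 on the log2 scale. For Lox they were Ngfr, Clmp and Pxdn, at 0.37, 0.44 and 0.44. For Eln they were Klk6, Pls1 and Tspan11, at 0.02, 0.03 and 0.04, in a region where many genes lie close together.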

How the data were processed

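Per the labels' protocols, biotinylated cDNA was made from 250 ng of RNA with a whole-transcript kit, and each sample has 1 array. The values deposited by the authors are on a log2 scale, as their range of 0.33 to 12.74 shows, and the submitters' processing notes name RMA, without a version or settings. RMA equalises the arrays, so a shift of most genes cannot be seen, and it compresses low levels.

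Of 68842 transcript clusters, 23446 had 1 symbol and 505 had several (left out), while 44891 are unnamed here. Probe sets of a gene were averaged. The number of arrays limits the precision, and neither a detection call nor a test was used. Gene symbols come from the array's annotation. Sequences come from RefSeq (GRCr8), which also lists the symbols of all 10 members. The members and lists were chosen with earlier results of these data known. Named genes are all members, up to 5 kept genes a pathway list with the largest absolute difference, 3 markers a list with the highest level and the 3 nearest genes. By the rule the promoters of Fbn1, Lox and Eln were to be shown; Lox and Eln have no entry in the table used, and Fbn2, Fbln5 and Loxl1 were added after their values were seen, as were Ltbp3, Ltbp4, Efemp1, Mfap2, Emilin1, Loxl3, Loxl4, Bmp1, Atp7a and low markers.

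Alternatives were median centring, quantile normalization, a loess fit (span 0.4), raised dim levels, other filters, thresholds and probe set rules. The counting code was run on simulated levels with planted differences, which checks the code only and not the counts on these arrays. Python 3.11.15, numpy 2.4.6, pandas 2.3.3 and statsmodels 0.14.6 were used.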

Additional observations from a re-analysis of the deposited data

How the results depend on the processing

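With 1 sample a group, no replicate could be left out, and whether another culture would give these values is unknown. No paired analysis was possible because each group has 1 sample and no test was made. The count of 10 members past 2-fold and their median above 2-fold kept their side under median centring, quantile normalization, the loess fit and levels raised to 4.97. The other probe set rules and the lack of a filter could not change them, since each member has 1 probe set and all 10 were already kept. With levels raised to 6.64, 7 members remained past 2-fold, and Eln (0.35), Mfap5 (0.43) and Fbn2 (0) were not; the median was 1.35, and 1.7% of kept genes were higher by 2-fold. This follows from the construction, since all mono-cultured levels lie below 6.64. With the filter at 6.64, 9 members stayed, all past 2-fold, against 7.42% of all genes that passed this filter. Each of the 9 passed it only through its co-cultured level, so it had to differ upward. At a threshold of 4-fold 8 members passed. Over all kept genes 1254 passed 2-fold either way, against 389 with levels raised to 6.64, 729 with the filter there, 2442 at 1.5-fold and 439 at 4-fold. Over the pathway lists 19 passed, against 10 with levels raised to 6.64, 29 at 1.5-fold and 11 at 4-fold.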
